A study of Mus musculus with 2 samples.

Results

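The genes described here are 8 genes of the resting (central) Treg and naive T cell program, namely Tcf7, Lef1, Bach2, Foxo1, Foxo3, Satb1, Klf2 and S1pr1. They were chosen by symbol from the 20938 genes in the deposited tables. All 8 were in both tables and passed the filter on low values, as did 16659 genes in all. RNA-seq compared 1 library of splenic Treg cells from littermate controls with 1 library from Foxp3-Mettl14f/+ cKO mice, both taken on day 7 after transplantation. In the cKO mice, which have a C57BL/6J background, Cre recombinase driven by the Foxp3 promoter deletes 1 floxed allele of Mettl14, a subunit of the m6A methyltransferase, so that the other allele remains. The control is labelled wild type, and the study's text also describes controls of this cross as Mettl14f/f. The labels call the cKO genotype a Foxp3 knockdown, whereas the study gives the Mettl14 genotype, which is used here. All recipients had streptozotocin-induced diabetes and a BALB/c islet allograft under the kidney capsule, and the sequenced mice received no tolerance-inducing antibodies. The cells were separated from red-cell-lysed spleens with a magnetic CD4+CD25+ kit, which first removes cells other than CD4+ T cells and then selects Treg cells. The study describes its isolated Treg cells as highly pure by flow cytometry. The age and the number of mice behind a library are not given in the sources used here.

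Resting Treg cells and naive T cells share a transcription program that holds them quiescent and lets them circulate through lymphoid organs. TCF1 (encoded by Tcf7) and LEF1 are related HMG-box factors of the Wnt pathway, and BACH2 represses genes of effector differentiation. FOXO1 and FOXO3 are forkhead factors that AKT excludes from the nucleus when antigen or cytokine receptors signal, and SATB1 organizes chromatin in developing T cells. KLF2, a zinc finger factor downstream of FOXO1, drives S1pr1, which encodes the sphingosine-1-phosphate (S1P) receptor that T cells use to leave lymphoid organs.

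Because the study concerns m6A, a mark placed mostly on GGAC-type motifs, the transcript of each gene was searched for GGACT. The site nearest to the stop codon in the longest protein-coding transcript is shown 5′ to 3′ as 25 bases of GENCODE M21 transcript sequence (GRCm38), with the motif in capitals. These are matches of letters, and no m6A was measured in these libraries.
Tcf7, 3′ UTR: cagctccccaGGACTcaccctcgta
Lef1, 5′ UTR: tgaaggaagtGGACTtttcggtatt
Bach2, coding sequence: ctgtgacggtGGACTtctgccagga
Foxo1, coding sequence: ttgagcgcttGGACTgtgacatgga
Foxo3, coding sequence: aaaccctctcGGACTctctctcagg
Satb1, 3′ UTR: gaagcgtcaaGGACTgtttggtaga
Klf2, coding sequence: acaacgtgttGGACTtcatcctctc
S1pr1, coding sequence: tccttggtcaGGACTcgaagccgcc

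The motif was unevenly spread over the program. Bach2 and Foxo1 each held 13 matches, or 1.46 and 1.50 per kb of transcript. The median over 16300 genes was 1.04 per kb. Lef1, S1pr1 and Klf2 each held 1 match, or 0.287, 0.328 and 0.541 per kb. Tcf7 held 3 matches, all in the 3′ UTR, and Foxo3 and Satb1 held 5 each.

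The promoters of Klf2, which changed most, and of Tcf7, the most abundant of these genes, are shown with the matches to searched motifs in capitals. Both are RefSeq promoters on GRCm38.p6, from 250 bases before to 50 after the start of transcription, written 5′ to 3′ on the strand of the gene.
Klf2, chr8:72318812-72319111, plus strand: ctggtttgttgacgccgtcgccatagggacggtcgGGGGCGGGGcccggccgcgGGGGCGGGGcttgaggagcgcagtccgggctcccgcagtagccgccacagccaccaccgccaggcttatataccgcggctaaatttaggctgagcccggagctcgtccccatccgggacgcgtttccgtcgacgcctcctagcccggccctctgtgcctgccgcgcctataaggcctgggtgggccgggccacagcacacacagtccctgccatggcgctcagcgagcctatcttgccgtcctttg
Tcf7, chr11:52282546-52282845, minus strand: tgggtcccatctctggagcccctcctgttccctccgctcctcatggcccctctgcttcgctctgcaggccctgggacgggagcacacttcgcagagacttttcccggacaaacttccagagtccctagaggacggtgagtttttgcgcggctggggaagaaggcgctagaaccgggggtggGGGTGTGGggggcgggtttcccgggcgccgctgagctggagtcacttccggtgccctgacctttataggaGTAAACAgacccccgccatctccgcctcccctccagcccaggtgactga

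RefSeq promoters were found for 7 of the 8 genes, and 6 motifs, chosen after the sequences had been seen, were searched on both strands. None of the motifs contains another. In the Klf2 promoter the capitals mark 2 GC boxes (GGGGCGGGG), the first beginning 215 bases before the start of transcription. In the Tcf7 promoter, the downstream one of 2, the capitals mark the KLF motif CCACACCC, read here on the opposite strand, and the FOXO motif GTAAACA just after the start of transcription. The GC box was in 11.5% of 32544 promoters of the same length, the KLF motif in 3.57% and the FOXO motif in 3.66%. Promoters of Lef1, Foxo1, Foxo3 and Satb1 also held the GC box, and the promoters found held no other match to the 6 motifs. The shares are per promoter, and Satb1 alone has 5, so a count of genes cannot be set against them. The letters of the TCF and LEF motif CTTTGAT (3.73% of all promoters), the AP-1 motif TGANTCA (7.79%) and the cyclic AMP response element TGACGTCA (1.80%) were not in these windows.

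The deposited values turned out to be read counts scaled by a single factor in each library, and 100% of them gave whole reads within a tolerance of 0.01. The depth was 20239325 reads for the control and 18327535 for the cKO library. Levels are quoted on the deposited scale, and a change is the log2 ratio of cKO to control after adding 1 to each level. Since each genotype has 1 library, the spread between replicates is unknown and the differences have no replicate check. The 95% intervals (exact Clopper-Pearson, on the reads) cover the counting error of reads only. PCR copies cannot be told from separate molecules here, so the intervals may be too narrow for the counting error of molecules. Mettl14 had 948 control and 652 cKO reads, a log2 change of -0.31 (-0.45 to -0.16), and Foxp3, which defines Treg cells, had 1547 and 1361 reads, a log2 change of 0.05 (-0.06 to 0.15). The 13 granulocyte marker genes held 270864 control and 312728 cKO reads, more than the 62180 and 42099 reads of 16 T cell core genes. Those T cell genes had a median log2 change of -0.31, and whether the Mettl14 value reflects this shift or the deleted allele was not tested.

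Klf2 and Bach2 rose past 1.5-fold in the cKO library, and none of the 8 genes was 1.5-fold lower. Of all genes tested, 17.2% passed this threshold upward and 24.2% downward. These shares were 15.4% and 14.9% for mean levels of 10 or more, 11.9% and 8.71% for 100 or more, and 10.1% and 5.17% for 1000 or more, the range in which all 8 genes lay. The median log2 change was 0.26 over the 8 genes and -0.04 over all genes tested. Together the 8 genes held 47014 control reads (0.232% of the library) and 46110 cKO reads (0.252%).

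**Figure D1:**
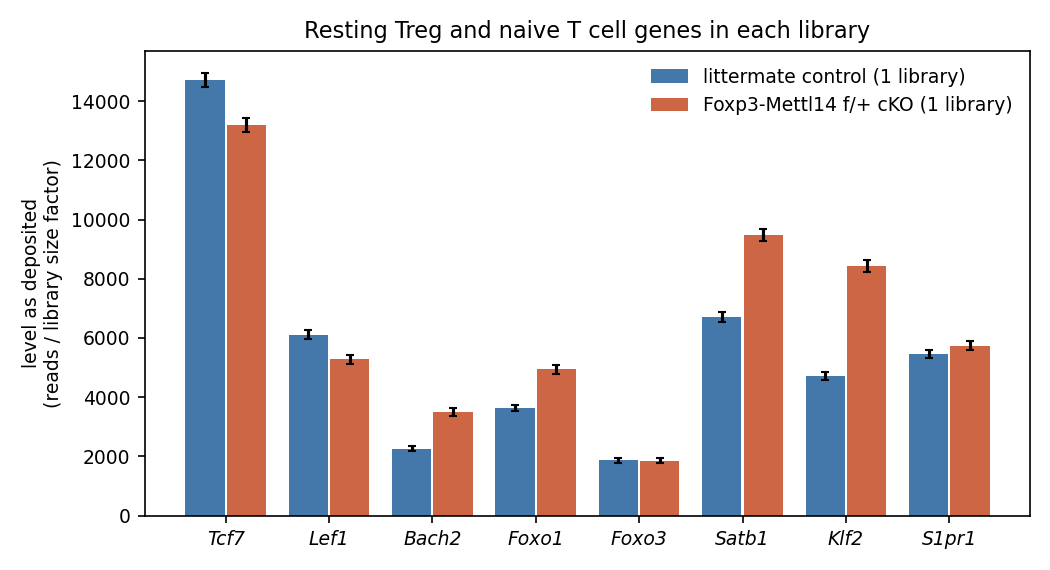
Level of each gene in the control (blue) and cKO (orange) library on the deposited scale (reads divided by the library's size factor), 1 library per bar, with exact 95% Poisson intervals of the reads as error bars. Klf2, Satb1, Foxo1 and Bach2 had the higher bar in the cKO library, Tcf7 and Lef1 in the control library (an order that turned when the T cell core genes were set equal), and the Foxo3 bars were nearly level.

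Among the HMG-box factors, Tcf7 lies on GRCm38 chromosome 11 from 52252371 to 52283014 on the minus strand. Its control level was 14717 and its cKO level 13199, from 15213 and 11607 reads. The log2 change was -0.16 (95% interval -0.19 to -0.12), small beside the 1.5-fold threshold of 0.58 on this scale. Lef1, on chromosome 3 from 131110471 to 131224356, had levels of 6112 and 5286 from 6318 and 4648 reads, a log2 change of -0.21 (-0.26 to -0.15). Both values were below 0 as deposited and above 0 when the T cell core genes were set equal, as given below. The ratio of these genes hardly moved, with 2.41 Tcf7 reads per Lef1 read for the control and 2.50 for the cKO. The log2 difference between these ratios was 0.05 (-0.01 to 0.12), which counting error alone can give.

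Bach2, on chromosome 4 from 32238804 to 32586108, had a control level of 2258 and a cKO level of 3504, from 2334 and 3081 reads. It was 1.55-fold higher, a log2 change of 0.63 (0.56 to 0.71), and 2643 of the genes tested had a larger rise. Its distance from the threshold was small, and with levels taken per total reads the change was 0.54, under 1.5-fold. Satb1, on chromosome 17 from 51736187 to 51833290, had levels of 6705 and 9475 from 6931 and 8332 reads. Its log2 change of 0.50 (0.45 to 0.55), or 1.41-fold, stayed under the threshold.

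The forkhead pair differed from each other. Foxo1, on chromosome 3 from 52268336 to 52353221, had control and cKO levels of 3634 and 4946 from 3757 and 4349 reads. Its log2 change was 0.44 (0.38 to 0.51). Foxo3, on chromosome 10 from 42181841 to 42276755, had levels of 1874 and 1857 from 1937 and 1633 reads, and its log2 change of -0.013 (-0.11 to 0.08) was not detectably different from 0 at this depth. There were 1.94 Foxo1 reads per Foxo3 read for the control and 2.66 for the cKO, a log2 difference of 0.46 (0.34 to 0.57) that no scaling between libraries can alter.

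Klf2 had the largest change of the program. The gene lies on chromosome 8 from 72319033 to 72321656, and its control level was 4721 and its cKO level 8432, from 4880 and 7415 reads. It was 1.79-fold higher, a log2 change of 0.84 (0.78 to 0.89), above that of 87.7% of the genes tested and below that of 2042. S1pr1, the receptor gene that KLF2 drives, stood at nearly the same level in both libraries. It lies on chromosome 3 from 115710433 to 115715072 and had levels of 5460 and 5737 from 5644 and 5045 reads, a log2 change of 0.07 (0.02 to 0.13). There were 0.865 Klf2 reads per S1pr1 read for the control and 1.47 for the cKO, a log2 difference of 0.77 (0.69 to 0.84).

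**Figure D2:**
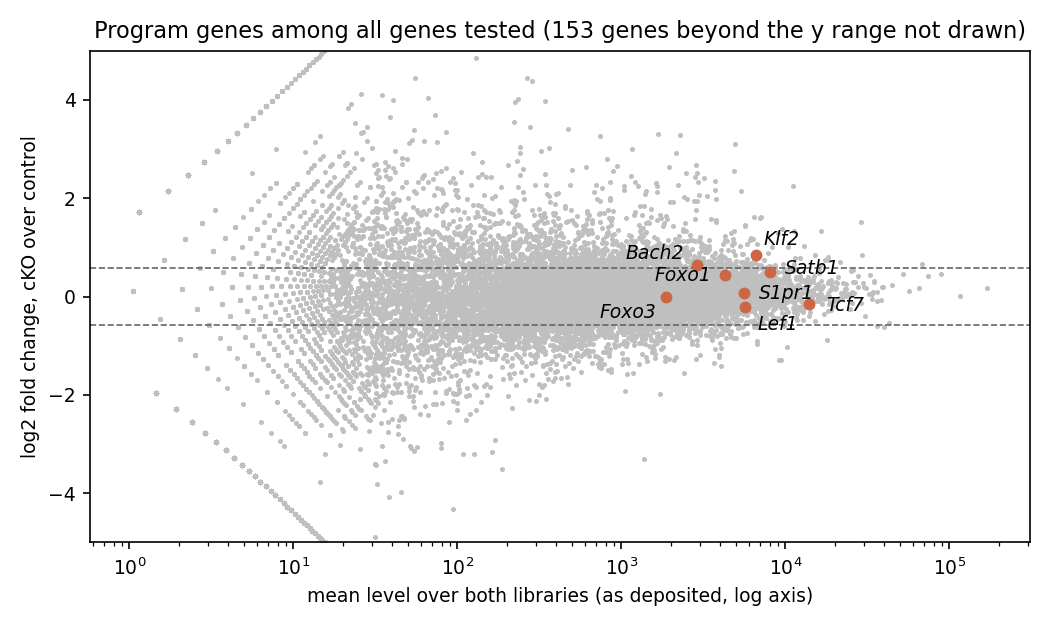
Log2 fold change (cKO over control) against the mean level on the deposited scale (log axis) for the genes tested (grey) and the 8 genes of the program (orange), with dashed lines at 1.5-fold, where 153 genes beyond 5 on the log2 scale are not drawn. The 8 genes lie among the more abundant genes, and of these 8 Klf2 and Bach2 alone lie above the upper line.

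Ordered by their change, the genes ran from Lef1 and Tcf7 through Foxo3, S1pr1, Foxo1, Satb1 and Bach2 to Klf2. Of the 28 pairs of these genes, 25 had changes that differed by more than counting error. The 3 pairs that did not were neighbours in this order, namely Lef1 with Tcf7, Foxo3 with S1pr1 (log2 difference -0.08, -0.19 to 0.03) and Foxo1 with Satb1 (-0.05, -0.13 to 0.02). The widest gap was between Klf2 and Lef1, with 1.29 Lef1 reads per Klf2 read for the control and 0.627 for the cKO, a log2 difference of -1.05 (-1.12 to -0.97). These intervals hold no biological spread.

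Levels between genes were compared as RPKM, the reads per kb of exon scaled to the depth of the library, over the union of a gene's exons. Tcf7 was the most abundant in both libraries, at 286 RPKM in control and 241 in cKO cells. Klf2 followed at 131 and 219 RPKM, and S1pr1 at 91.6 and 90.4. Lef1, Foxo1 and Satb1 formed the middle of the order, at 35.5 and 28.9, 21.4 and 27.4, and 18.0 and 23.9 RPKM. Foxo3 was at 12.6 and 11.8 RPKM and Bach2 at 11.6 and 16.9, so that these genes, the lowest, stood in the opposite order in the 2 libraries. Klf2 came closer to Tcf7 in the cKO library, where Tcf7 had 1.57 reads per Klf2 read against 3.12 in the control. The levels of Lef1 and Satb1 rested on the length used, since their annotated exons exceed the longest protein-coding transcript, and per kb of that transcript their control levels were 89.7 and 54.9 RPKM. Satb1 then stood above Foxo1, and Lef1 kept its place. Lef1, Bach2, Foxo1 and Satb1 share exon bases with other annotated genes that have no values in these tables, most of them antisense. No strand setting of the counting is given in the sources used here, so reads from those stretches cannot be assigned to either gene.

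Recovered reads were also compared by an exact binomial test (two-sided, TMM-scaled totals) for the 14863 genes with 10 reads or more. It compares these libraries, not the genotypes. At an adjusted p under 0.1 and 1.5-fold, 2125 genes (14.3%) were called higher and 2690 (18.1%) lower, with Klf2 and Bach2 among the higher. Against plain library totals Klf2 was still called and Bach2 was not. When a biological coefficient of variation of 0.2 was assumed in edgeR's exact test, 931 genes (6.26%) were called higher and 1488 (10%) lower, and none of the 8 genes was called. The adjusted p from edgeR was then 0.235 for Klf2 and 0.478 for Bach2. At an assumed 0.4 the test called 1.54% of genes higher and 3.83% lower, again none of the 8.

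The scale between the libraries mattered for the direction of several genes, because marker genes of T cells moved as well. The 16 T cell core genes, among them Lck, had a median log2 change of -0.31, with 15 below 0 and 2, Cd3g and Cd4, at least 1.5-fold lower. In a bulk library, fewer cells of a type and less RNA per cell cannot be told apart. When the T cell core genes were set equal, Tcf7 was at 0.16 and Lef1 at 0.10 on the log2 scale, now above 0, against 0.27 for the median of all genes. Bach2 was at 0.95, Foxo1 at 0.76, Satb1 at 0.81, Klf2 at 1.15, S1pr1 at 0.38 and Foxo3 at 0.30. On that scale 4 of the 8 genes passed 1.5-fold upward and none downward, as did 28.8% and 19.2% of all genes. The order of the 8 genes does not depend on the scaling, which shifts all of them alike.

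The 13 Treg identity genes found had a median of 0.33, with 2 at least 1.5-fold higher and 1 lower. They did not move together, with 8 above 0 and 5 below 0. Foxp3 was at 0.05, Ikzf2 at -0.22 and Il2ra at 0.68, so this scaling rests on a mixed list. When the list was set equal (its median at 0), Klf2 was at 0.51, Bach2 at 0.30, Satb1 at 0.17 and Foxo1 at 0.11. The remaining 4 genes were below 0, from S1pr1 at -0.26 to Lef1 at -0.54, against -0.37 for the median of all genes. None of the 8 genes then passed 1.5-fold, as 11.4% of all genes did upward and 36.5% downward. With library totals Klf2 alone passed, beside 15.1% of all genes upward and 26.6% downward. Klf2, Bach2, Satb1 and Foxo1 stayed above 0 under each of the scalings run.

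**Figure D3:**
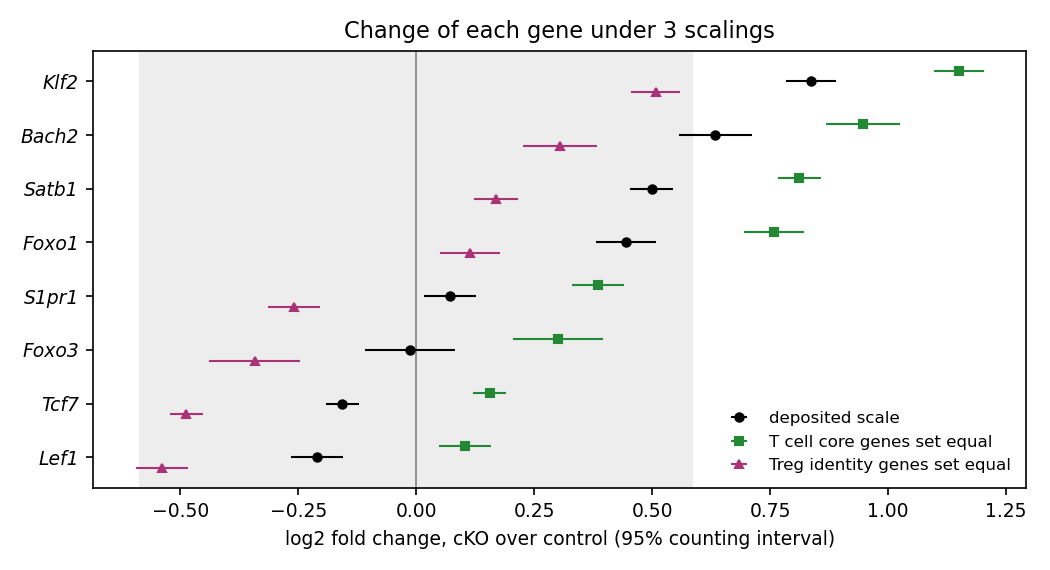
Log2 fold change (cKO over control) of each gene on the deposited scale (black circles), after setting the T cell core genes equal (green squares) and after setting the Treg identity genes equal (purple triangles), with 95% counting intervals and the range under 1.5-fold in grey. Klf2 ran from 0.51 to 1.15, and Tcf7 and Lef1 lay above 0 for the T cell core scaling and below 0 for the others drawn.

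Marker genes of other cell types also moved, and their counts stand beside 17.2% of all genes tested higher and 24.2% lower. All 17 B cell genes rose past 1.5-fold, with a median log2 change of 2.34 and a summed level of 10903 (control) and 54553 (cKO). None of them was at 0, and Pax5, which defines the lineage, had 1065 control and 7778 cKO reads. B cells also express some of the 8 genes, and the part of B cell RNA in the changes of the 8 genes was not tested. The 13 CD8 T and NK cell genes had a median of 0.67, 8 of them at least 1.5-fold higher, with a summed level of 8936 and 16504. Cd8a had 449 and 1824 reads, and none of the list was at 0. Naive CD8 T cells express this program too, and their part was likewise not tested.

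Foxo3 is also abundant in maturing red cells. In the list of 19 erythroid genes 18 were at least 1.5-fold lower in the cKO library, with a median of -1.26 and a summed level of 70447 and 29599. Gata1, which defines the lineage, had 1426 and 551 reads, none of the list was at 0, and its part in the Foxo3 level was not tested. Endothelial cells express Klf2 and S1pr1. Among their genes, Cdh5 had 84 control and 35 cKO reads, Vwf 210 and 237, and Stab2 31 and 158. Emcn, Ramp2 and Sox18 were at 0 in both libraries. Of the 12 endothelial genes past the filter, 2 were at least 1.5-fold higher and 5 lower, with a median of -0.13. Pecam1, which leukocytes express too, held 2339 of the 3101 control reads and 2836 of the 3472 cKO reads of that list, whose part was not tested.

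The 18 macrophage genes were all at least 1.5-fold higher, with a median of 2.28 and a summed level of 32039 and 71965. The 13 granulocyte genes had a summed level of 262031 and 355622 and a median of 0.44, with 2 at least 1.5-fold higher and 3 lower. None of the macrophage or granulocyte genes was at 0 in either library, and their part in the changes of the 8 genes was not tested.

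**Figure D4:**
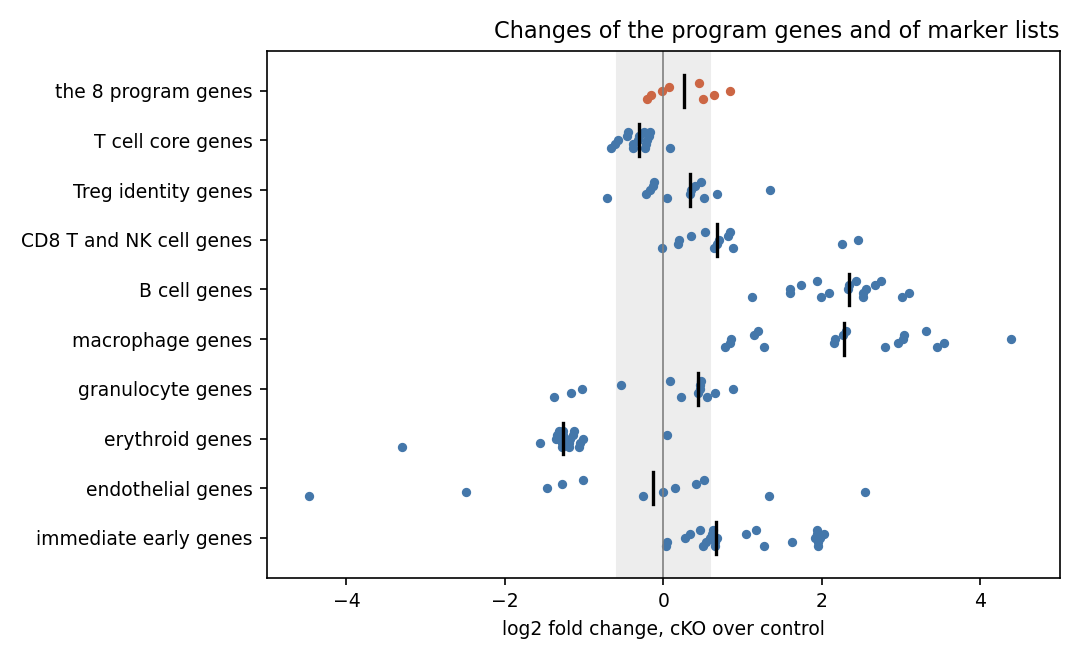
Log2 fold change (cKO over control) of the 8 genes (orange) and of marker genes (blue dots, 1 per gene past the filter), with the list median as a black line and the range under 1.5-fold in grey. The 8 genes lie between -0.21 and 0.84, below the B cell genes, whose lowest value is 1.11.

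Klf2 is a gene of the quiescent program and is not in the list of immediate early genes, which is given beside it. Of 24 such genes, 16 were at least 1.5-fold higher and none lower, beside 17.2% and 24.2% of all genes tested. Their median was 0.66 and their summed level 34427 (control) and 73033 (cKO). Dusp1, a phosphatase that shuts off MAP kinases, had 1588 and 5320 reads and rose by 1.98 on the log2 scale, and Nr4a1, an orphan nuclear receptor induced by antigen receptors, rose by 2.02. The related factors Klf6 and Klf4 rose by 0.68 and 0.65, beside 0.84 for Klf2, and Klf3 had a log2 change of 0.24. All 24 immediate early genes had changes above 0, and their part in the Klf2 change was not tested.

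Of 15 FOXO target genes, 7 were at least 1.5-fold higher and none was lower, beside 17.2% and 24.2% of all genes tested. The list had a median log2 change of 0.58, and the part of other cell types in it was not tested. Il7r, the receptor for the survival cytokine IL-7, had 5931 and 7566 reads and a log2 change of 0.58 (0.54 to 0.63), just under 1.5-fold. Ccr7, the receptor that takes T cells into lymph nodes, had 2394 and 1973 reads and a log2 change of -0.05 (-0.13 to 0.04), and was 1 of 3 genes of the list below 0. Among those past 1.5-fold were Irs2 at 0.72 and Pik3ip1, an inhibitor of PI3K, at 0.98. Rag1, a recombinase gene of developing lymphocytes, had 29 and 193 reads and rose by 2.92, and Rag2 had 12 and 24 reads.

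Upstream of the FOXO factors, 2 of 15 regulators were at least 1.5-fold higher and 1 was lower, beside 17.2% and 24.2% of all genes tested. Their median was 0.15. The higher genes were Pik3ip1 and Inpp5d, which encodes the lipid phosphatase SHIP1 and rose by 0.76. Akt1 and Sgk1, whose kinases phosphorylate FOXO factors, had log2 changes of 0.12 and 0.15. Foxo4, another forkhead factor of the family, had 966 and 843 reads and a log2 change of 0.04 (-0.10 to 0.17). Foxo6 was the lower gene, with 7 and 0 reads. A library at 0 gives little here, since of 1224 genes with 10 to 19 control reads 610 had 0 cKO reads.

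Partners of TCF1 and LEF1 showed no common direction. Of 13 genes 3 were at least 1.5-fold higher and 2 lower, beside 17.2% and 24.2% of all genes tested, with a list median of 0.20. Axin2, a standard readout of Wnt signaling, had 1308 and 703 reads and fell by 0.66 on the log2 scale (-0.80 to -0.53), beside -0.16 for Tcf7 and -0.21 for Lef1. For Axin2 the T cell core scaling gave -0.35, which is under 1.5-fold. Ctnnb1, which encodes beta-catenin, had a log2 change of -0.16, and the corepressor gene Tle3 one of 0.25. Tcf7l2, a relative of Tcf7 used in many tissues, had 150 and 327 reads and rose by 1.35, and Tcf7l1 had 0 and 13. The other genes past 1.5-fold were Bcl9, a beta-catenin cofactor, at 0.64, and Tle2, with 18 and 0 reads.

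BACH2 restrains Prdm1 and competes with AP-1 and BATF for sites. Prdm1, which encodes BLIMP1 of effector Treg cells, had 1119 and 1029 reads and a log2 change of 0.11 (-0.01 to 0.24), beside the 0.63 of Bach2. Of 10 partners and opposing factors 3 were at least 1.5-fold higher and none lower, beside 17.2% and 24.2% of all genes tested. The 3 were Junb at 1.16, Maff at 0.93 and Jund at 0.61. Batf had a log2 change of -0.21 (-0.45 to 0.02), Irf4 of 0.14 and the related Bach1 of 0.45. Around Satb1, 1 of 6 genes was at least 1.5-fold higher and none lower, beside the same shares of all genes, with a list median of -0.01. Bcl11b, a factor of T cell identity, had 5613 and 3283 reads and a log2 change of -0.54 (-0.60 to -0.48), beside the 0.50 of Satb1.

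In the S1P pathway, 4 of 14 genes were at least 1.5-fold higher and 3 lower, beside 17.2% and 24.2% of all genes tested. The list had a median of 0.19. S1pr1 had the most reads of the receptor genes in both libraries, and S1pr4, the next, had 1388 and 1315 reads and a log2 change of 0.16 (0.05 to 0.27). S1pr3 rose by 2.24 (1.90 to 2.61) from 84 to 340 reads and S1pr5, a receptor of NK cells, by 1.23 from 170 to 340, whereas S1pr2 had 207 and 233 reads. Cd69, whose protein pulls S1PR1 from the cell surface, had 697 and 919 reads and rose by 0.63 (0.49 to 0.78). Sphk1, a kinase that makes S1P, fell by 1.02 from 658 to 275 reads, and Mfsd2b, the S1P exporter of red cells and platelets, fell by 0.89. The phosphatase gene Plpp1 fell by 1.49 and its relative Plpp3 rose by 1.39, from 49 to 111 reads.

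**Figure D5:**
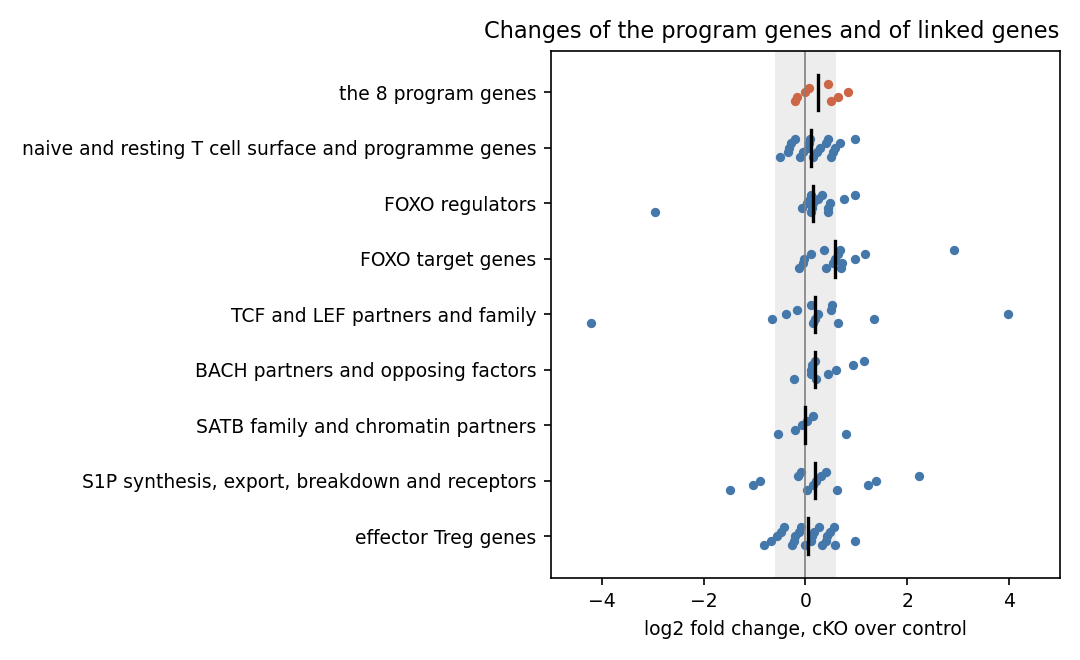
Log2 fold change (cKO over control) of the 8 genes (orange) and of linked genes (blue dots, 1 per gene past the filter), with the list median as a black line and the range under 1.5-fold in grey. Medians run from -0.01 for SATB partners to 0.58 for FOXO target genes, and the far dots of Foxo6, Tle2 and Tcf7l1 are genes with 0 reads in 1 library.

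Of 20 other genes of the naive and resting state, 2 were at least 1.5-fold higher and none was lower. Most of the list lay at mean levels above 1000, where 10.1% of all genes were higher and 5.17% lower. Of all genes tested, 17.2% were higher and 24.2% lower. Of the 20 genes 13 were above 0 and 7 below 0, with a median of 0.12. The higher genes were the survival gene Bcl2 at 0.67, from 3227 to 4377 reads, and the chemokine receptor gene Ccr9 at 0.98, from 268 to 450. Actn1, an actin crosslinker, had a log2 change of 0.09, and the lowest value of the list was -0.50, for the integrin gene Itga6.

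On the effector side, 22 effector Treg genes had a median of 0.05. Of these 1 was at least 1.5-fold higher and 2 were lower, beside 17.2% and 24.2% of all genes tested. Ebi3, a subunit of the cytokine IL-35, rose by 0.98. The lower genes were Tnfrsf4 (OX40), which fell by 0.68, and Il10, with 46 and 22 reads, which fell by 0.81, both under 1.5-fold when the T cell core genes were set equal. Cd44, a surface marker of activated T cells, had 6238 and 7911 reads and a log2 change of 0.58 (0.53 to 0.62), and the costimulatory receptor gene Icos had 0.16.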

How the data were processed

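The study's methods give TopHat as the aligner, with mm10 as the build, while the submitters' processing notes name bcl2fastq 2.0, STAR, StringTie and DESeq2 without their roles. The counting tool and annotation are not given in the sources used here. The deposited values are a signal, read counts that the authors had divided by a size factor. Dividing by the smallest value above 0 recovered 20239325 control and 18327535 cKO reads.

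Genes were kept from a mean level of 1 upward, with a pseudocount of 1 and the study's 1.5-fold threshold. Counting tests were the exact binomial and edgeR's exact test at an assumed coefficient of variation of 0.2 or 0.4, with Benjamini-Hochberg adjustment over genes with at least 10 reads. A threshold of 0.1 that the methods give without its quantity was taken as an adjusted p. Intervals of ratios between genes used the normal approximation on log reads. The exact binomial test and the counting intervals were tested on simulated reads with counting error only, which cannot show how they behave under biological spread.

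The 8 genes, the lists and the tests were chosen with earlier results of these data known. Named are the 8 genes, Mettl14 and Foxp3, family members, textbook regulators and, of each list, up to 4 of the most abundant genes and up to 4 of the most changed from a mean level of 10 upward. Gata1, Cdh5, Emcn, Ramp2, Sox18, Akt1, Sgk1, Tle2, Batf, Sphk1, Mfsd2b, Itga6, Icos, Klf4 and Klf6 were named after their values were seen. Some genes that this rule would name are not reported here. Of the Treg list, Folr4 was not matched. Symbols were matched to GENCODE M21 (GRCm38), which held 20524 of the genes. Alternatives were pseudocounts of 0.1 and 5, other scalings and filters, and a 2-fold threshold. Software was Python 3.11.15, scipy 1.17.1, R 4.3.3, edgeR 4.0.16 and DESeq2 1.42.0.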

Additional observations from a re-analysis of the deposited data

How the results depend on the processing

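No paired analysis was possible because 1 library per genotype leaves nothing to pair, and for the same reason no library could be left out. With a pseudocount of 0.1 or 5 and with TMM or median-of-ratios scaling, the log2 changes of all 8 genes stayed within their counting intervals. With library totals the changes were 0.75 for Klf2, 0.54 for Bach2, 0.41 for Satb1, 0.35 for Foxo1, -0.25 for Tcf7, -0.30 for Lef1 and -0.019 for S1pr1, which turned below 0, with a median of 0.17 and 1 gene at least 1.5-fold higher. After setting the T cell core genes equal they were 1.15 for Klf2, 0.95 for Bach2, 0.81 for Satb1, 0.76 for Foxo1, 0.38 for S1pr1, 0.30 for Foxo3, 0.16 for Tcf7 and 0.10 for Lef1, so that Tcf7 and Lef1 turned above 0, with a median of 0.57 and 4 genes at least 1.5-fold higher. With the Treg identity genes set equal they were 0.51 for Klf2, 0.30 for Bach2, 0.17 for Satb1, 0.11 for Foxo1, -0.26 for S1pr1, which turned below 0, -0.34 for Foxo3, -0.49 for Tcf7 and -0.54 for Lef1, with a median of -0.072, now below 0, and 0 genes at least 1.5-fold higher. These shifts are 1 constant per scaling by construction. A 2-fold threshold called 0 of the 8 genes higher, and the share of all genes past 2-fold was not computed. The median of the 8 genes rested on its few members, and was 0.44 without Tcf7, Lef1, Foxo3 or S1pr1 and 0.071 without Bach2, Foxo1, Satb1 or Klf2.

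Over all genes, 2864 were at least 1.5-fold higher and 4028 lower. A minimum mean level of 10 left 2035 lower, and a minimum of 100 left 1275 higher and 931 lower. A minimum of 1000, added after seeing the data, left 493 and 253. Fewer genes were tested with each higher minimum, and the shares fell as well. From a minimum of 1 to a minimum of 1000 they went from 17.2% to 10.1% higher and from 24.2% to 5.17% lower. After setting the T cell core genes equal, also added for all genes after seeing the data, 4793 were higher. The exact binomial test called 2125 higher and 2690 lower, and edgeR's exact test called 931 and 1488 with an assumed coefficient of 0.2 and 229 and 569 with 0.4. The lengths of the longest protein-coding transcripts were also added later. Counting error is small for these genes. Biological spread, which was not measured, limits what the comparison can show, and so do the shifts in marker genes of other cell types between the libraries.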
